A study of Mus musculus with 15 samples.

Results

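The transcripts described here were those that the livers of control mice held at a low level at birth and at a high level at 10 weeks. For each array probe, the scanner software's processed liver signal was divided by its processed reference signal and put on the log2 scale, and the gap was the lowest value of the 3 PND70 control arrays minus the highest value of the 3 PND1 control arrays. The 200 probes with the largest gap of 42006 probes were taken, and they are called the members below.

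All mice were ApoE-knockout animals, which lack apolipoprotein E and have high blood cholesterol, with a strain label of C57/BL6J. Total liver RNA was hybridized on 15 two-colour arrays, 3 in each of 5 groups. The paper places each of its mice in a separate litter, but it does not describe the postweaning group. The PND1 control pups were taken on the day of birth from dams on tap water free of arsenic, and the PND1 arsenic pups from dams whose water held 49 ppm arsenic, given as sodium arsenite at 85 mg/L, between gestational day 8 and delivery. At 10 weeks of age (PND70), control mice had never received arsenic, prenatal arsenic mice had been exposed only through the dam in the same way, and postweaning arsenic mice had drunk 49 ppm arsenic from PND21 onward. Each liver RNA carried the dye Cy3 and was set against the same reference RNA in Cy5, a pool of 11 mouse cell lines that includes a hepatocyte line, so every value below is a log2 ratio of liver over reference unless another scale is named.

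At birth the liver is still a site of blood cell formation, and its hepatocytes have only begun to make many of the enzymes and plasma proteins of the adult organ. Cytochrome P450 enzymes, transporters and secreted carrier proteins are classes known to be switched on in hepatocytes between birth and sexual maturity, under the control of liver transcription factors such as HNF1, HNF4 and C/EBP and, in part, of growth hormone acting through STAT5. The arrays measured whole liver, in which more cells of a type and more RNA per cell cannot be told apart.

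The files identify a probe by its number and its sequence of 60 bases and do not pair it with a gene. Genes were therefore named only where a probe sequence lay in one of the 32851 windows of 300 bases around RefSeq transcript starts (build GRCm38.p6). Exact matches of at least 40 bases were found for 217 probes, of which 2 were members, and the other members are named by probe. Marker genes of hepatocytes and blood-forming cells were not among the matched probes, so the tissue label was not checked against them.

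The first member with a match, Z00032989-1, starts with the first 50 transcribed bases of Cyp3a11, a cytochrome P450 that oxidizes drugs and steroids, at chr5:145879805-145879854 on the minus strand. The 250 bases before that start, at chr5:145879855-145880104 on the minus strand, are printed to show its promoter. Capitals mark, from left to right, TATAAA at -234, the forkhead motif TGTTTAC at -198 and the HNF4 motif CAAAGTCCA at -109 (first base counted from the transcript start).

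Cyp3a11 promoter: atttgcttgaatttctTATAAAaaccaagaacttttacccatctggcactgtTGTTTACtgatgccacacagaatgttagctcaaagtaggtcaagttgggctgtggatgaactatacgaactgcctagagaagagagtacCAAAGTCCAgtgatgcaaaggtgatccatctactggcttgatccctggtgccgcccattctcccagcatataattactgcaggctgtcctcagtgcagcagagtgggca

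Both strands were searched, and the matches did not overlap each other. Of all 32851 windows of this length before a start, 12.4% held TATAAA, 3.17% TGTTTAC and 0.384% CAAAGTCCA. The other motifs searched were CAAAGGTCA (0.426% of windows), TTAATNATT (1.4%), the full palindromic HNF1 motif (0.00913%), the STAT5 motif TTCNNNGAA (7.02%) and the C/EBP motifs TTGCNNAA (9.56%) and TTGCGCAA (0.164%), of which TTGCGCAA is a special case of TTGCNNAA and the full HNF1 motif contains TTAATNATT. These letters were not in this window.

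The second, Z00071252-1, matched with all 60 bases at chr4:60838901-60838960 on the plus strand. This is inside the annotated span of the long noncoding RNA gene Gm21286 (chr4:60837364-60840702). Its first base lay at -24 and at -184 from annotated transcript starts of that gene, so part or all of the probe lies before them. Which transcript the probe reads was not tested. Within 250 kb of Gm21286 lie 6 other annotated genes, all genes or pseudogenes of the major urinary protein (Mup) family, whose products are secreted by the adult liver and carry pheromones in urine. Another member, Z00071202-1, is a relative of it and is printed with it, since the pair shows how near in sequence members can be. Capitals mark the 2 bases that differ within the 32 that align.

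Z00071252-1: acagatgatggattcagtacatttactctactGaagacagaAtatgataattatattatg

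Z00071202-1: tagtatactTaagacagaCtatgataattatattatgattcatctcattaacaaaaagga

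Near matches, which name no gene, were 59 of 60 bases of Z00055644-1 and 31 of 32 aligned bases of Z00072624-1 to windows of the Mup pseudogene Mup-ps15, 43 of 46 bases of Z00071202-1 to Gm21286, and 49 of 54 bases of Z00071109-1 to the organic anion transporter gene Slc22a27.

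Of the 200 members, 12 were related by sequence to another member, in 6 pairs. The 2 pairs printed next show near copies, with differing bases in capitals (4 of 52 aligned bases in the first pair and 4 of 53 in the second).

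Z00024243-1: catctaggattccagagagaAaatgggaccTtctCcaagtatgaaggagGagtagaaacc

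Z00045520-1: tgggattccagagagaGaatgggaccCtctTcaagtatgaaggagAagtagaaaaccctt

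Z00045150-1: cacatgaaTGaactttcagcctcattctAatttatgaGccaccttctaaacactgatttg

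Z00025829-1: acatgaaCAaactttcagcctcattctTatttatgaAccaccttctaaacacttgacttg

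A further 2 pairs overlapped without a mismatch, with the shared stretch of 26 and 29 bases in capitals. Whether the probes of a pair read one transcript was not tested.

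Z00054968-1: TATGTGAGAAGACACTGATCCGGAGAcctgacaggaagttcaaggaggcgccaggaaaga

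Z00039591-1: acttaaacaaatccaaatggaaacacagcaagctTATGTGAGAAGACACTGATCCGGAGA

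Z00023830-1: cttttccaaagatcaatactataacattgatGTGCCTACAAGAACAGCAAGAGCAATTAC

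Z00055704-1: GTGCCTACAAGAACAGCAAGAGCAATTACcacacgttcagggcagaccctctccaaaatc

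In the control mice, whose values chose the members, Z00054968-1 measured 1.83 to 2.16 in the PND1 controls and 4.63 to 4.80 in the PND70 controls, and Z00039591-1 measured 1.53 to 1.76 and 3.86 to 4.0. Z00023830-1 measured -0.26 to 0.30 and 3.25 to 3.68, and Z00055704-1 -0.08 to 0.10 and 2.44 to 2.98. The array also carries the opposite strand of Z00064820-1 over 57 bases. Z00064820-1 lay at 0.43 to 0.78 in the PND1 controls and 3.00 to 3.21 in the PND70 controls, whereas the opposite-strand probe Z00057765-1 lay at -1.33 to -0.95 and -0.87 to -0.61, with its PND70 controls also above its PND1 controls.

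As a group the members had a median GC content of 41.7%, against 43.3% over all probes. The polyadenylation signal AATAAA was present in the printed direction in 24 members (12%) and in 6.75% of all probes, and on the opposite strand in 9 members (4.5%) and 3.42%. Its variant ATTAAA was present in 8 members (4.0%) and 3.2% of all probes, and on the opposite strand in 8 (4.0%) and 2.31%.

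The gap that chose the members ran from 6.31 down to 1.64, with 15 members over 4 and 118 over 2. A gap above 0 was found for 12136 probes, or 28.9% of all. Just inside the threshold were Z00062821-1, Z00072513-1 and Z00059266-1 with gaps of 1.65, 1.64 and 1.64, and just outside it Z00024636-1, Z00054719-1 and Z00055957-1 with 1.63, 1.62 and 1.62. The threshold therefore cut through a continuous range of gaps. After background correction and normalization of the arrays, the control age difference (PND70 minus PND1) of the members had a median of 2.69 and a range of 1.33 to 6.52. These values chose the members and carry no test.

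At birth most members gave a liver signal above that of most negative controls, as most probes of the array did. In the PND1 controls, 136 members had a mean above the reference and 64 a mean below it, from -2.63 to 4.25, and at PND70 192 lay above and 8 below, from -0.61 to 8.23. The median member was at 0.20, 0.34 and 0.28 on the 3 PND1 control arrays and at 3.18, 3.23 and 3.23 on the 3 PND70 control arrays, whereas the median of all probes was between -0.03 and -0.01 on these 6 arrays. When each liver signal was held against the level that 95% of negative control spots stayed under, 183 members were above that level on all 6 PND1 arrays, 4 on none of them, and 200 on all 9 PND70 arrays. On single PND1 arrays 188 to 194 members passed it, as did 90.6% to 96.4% of all probes. On PND70 arrays 93.2% to 96.2% of all probes passed, so passing is no trait of the members. For the 4 members under that level on all PND1 arrays, the PND1 signal could not be told apart from that of negative controls. The size of their age difference rests on the background correction.

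**Figure D1:**
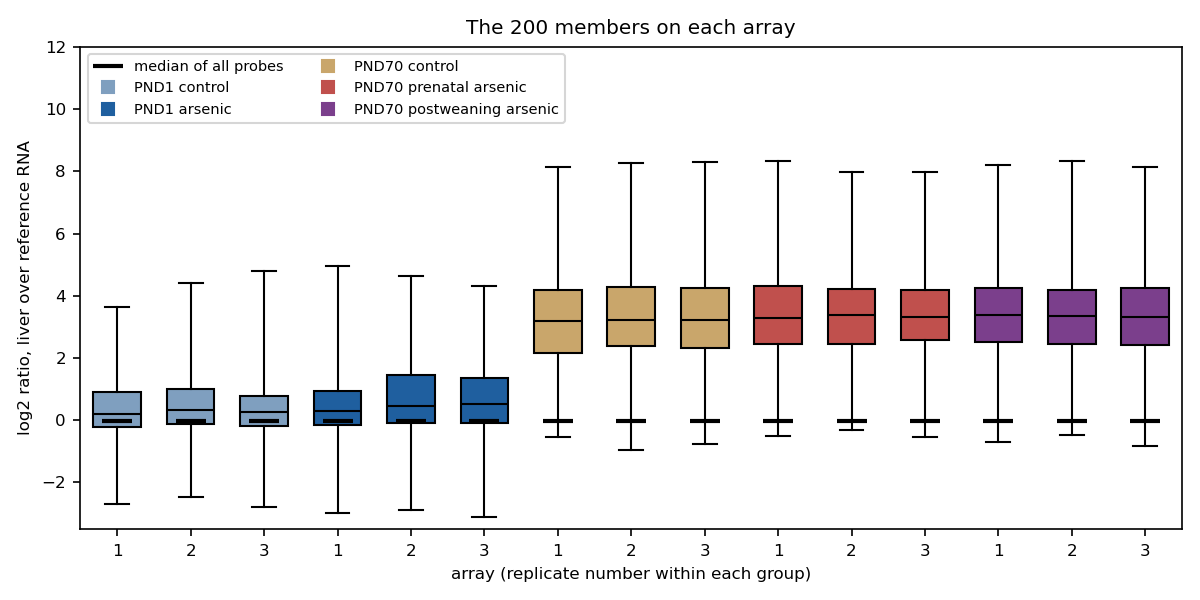
Log2 ratio of liver over reference for the 200 members on each of the 15 arrays, with boxes from the lower to the upper quartile, a line at the median and whiskers to the lowest and highest member; heavy bars mark the median of all 42006 probes. The member medians lie between 0.20 and 0.53 on the 6 PND1 arrays and between 3.18 and 3.37 on the 9 PND70 arrays.

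Whether the members also rose between birth and 10 weeks in mice exposed to arsenic before birth was asked next. The differences come from 6 arrays that the choice of members had not used. The variance in the test came from all arrays, including the control arrays that chose the members. All 200 were higher in PND70 prenatal arsenic than in PND1 arsenic mice at an adjusted p of 0.05 (limma, Benjamini-Hochberg over 42006 probes, largest adjusted p 0.0129), where 22.7% of all probes were higher and 27.1% lower. With only these groups compared, which leaves the control arrays out of the variance, 199 members passed the same threshold. For every member the 3 arrays at PND70 lay above the 3 at PND1, as for 28.6% of all probes. None lay below, as for 32.7%. The median difference was 2.65 (6.27-fold), with a range of 1.18 to 6.46. Both ends of the range are uncertain, because Z00024300-1 and Z00033491-1 were near the background at birth. Without background subtraction their differences were 0.29 and 4.63. The difference was at least 2 for 162 members and at least 4 for 25. It was smaller in exposed than in control mice for 111 of the 200, a count that leans on the choice of members, since the rule took large control differences. Images of all PND1 arrays were extracted on one day and those of all PND70 arrays on another, so age and extraction day cannot be told apart.

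Z00033491-1 had the largest gap. Its values were 0.33, 0.15 and -0.14 in PND1 controls and 0.06, 0.12 and 0.26 in PND1 arsenic mice, then 6.58, 6.71 and 6.61 in PND70 controls, 6.53, 6.67 and 6.62 in prenatal arsenic and 6.40, 6.59 and 6.11 in postweaning arsenic mice. Its liver signal passed the negative controls on only 2 of the 6 PND1 arrays. The exposed age difference was 6.46 ± 0.12 (SE, n = 3 per group, limma adjusted p = 3.12e-13) and 4.63 without background subtraction, and with a newborn level this near the background no fold is given.

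Z00022843-1 rose from -1.12, -0.74 and -0.23 in PND1 arsenic to 4.72, 4.82 and 4.74 in PND70 prenatal arsenic mice (limma adjusted p = 3.44e-11), a difference of 5.45 that ran from 4.81 without background subtraction to 6.72 in the liver channel alone. Z00060225-1 rose from -2.00, -1.41 and -1.31 to 3.99, 4.03 and 3.82 (limma adjusted p = 6.2e-10), a difference of 5.52 that was 4.1 without background subtraction. In the other 7 of the 10 members with the largest gap (Z00018408-1, Z00059883-1, Z00026107-1, Z00024717-1, Z00022870-1, Z00023621-1 and Z00023072-1), the exposed age difference was between 4.63 and 5.26. Without background subtraction these 7 differences were between 2.57 and 4.38, with 2.57 for Z00022870-1, which passed the negative controls on 2 of 6 PND1 arrays, 2.65 for Z00024717-1 and 3.42 for Z00023621-1. The sequences of the first 3 are shown as those of the members with the largest gap, which no gene name identifies here.

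Z00033491-1: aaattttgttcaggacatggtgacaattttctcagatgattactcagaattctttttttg

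Z00022843-1: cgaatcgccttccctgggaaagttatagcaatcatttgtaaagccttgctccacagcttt

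Z00060225-1: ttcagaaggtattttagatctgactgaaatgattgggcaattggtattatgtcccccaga

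At the other end were Z00024300-1 and Z00016702-1. Z00024300-1 lay at -1.33, -1.48 and -1.23 in PND1 arsenic and at -0.20, -0.02 and -0.29 in PND70 prenatal arsenic mice, a difference of 1.18 ± 0.09 (SE, n = 3 per group, limma adjusted p = 2.45e-07). The difference was 0.29 without background subtraction, 0.85 in the liver channel alone and 1.84 with processed signals, and the probe was among the 4 members with no PND1 liver signal above the negative controls. Z00016702-1 lay at -0.14, 0.01 and -0.21 and then at 1.10, 1.12 and 1.15, a difference of 1.24 ± 0.06 (limma adjusted p = 5.12e-09) that was 0.37 without background subtraction.

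**Figure D2:**
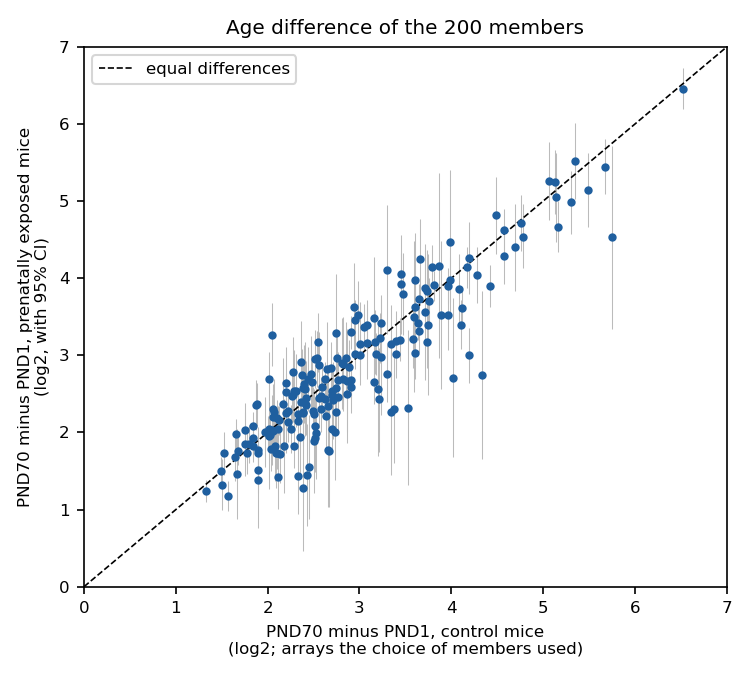
PND70 minus PND1 difference (log2) of each of the 200 members in control mice (horizontal axis, arrays that chose the members) and in prenatally exposed mice (vertical axis, with 95% confidence intervals); the dashed line marks equal differences. Points run from 1.18 to 6.46 on the vertical axis, with probes near the background at birth at both ends, and lie on both sides of the line.

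Both members with an exact match were higher at PND70. The Cyp3a11 probe Z00032989-1 was at 2.66, 4.65 and 4.32 in PND1 arsenic and at 6.20, 6.06 and 6.13 in PND70 prenatal arsenic mice, a 4.78-fold difference (limma adjusted p = 0.000245). Over all arrays of each age its liver signal was 4.6 higher at PND70 and its reference signal 2.16 higher (log2), a shift of the reference described below. Z00071252-1, matched within the span of Gm21286, went from -0.04, 0.00 and 0.28 to 3.49, 3.38 and 3.64 (limma adjusted p = 3.73e-09). No fold is given for it because its PND1 liver signals were not above the negative controls on any array. Of the near matches, which name no gene, Z00055644-1 (Mup-ps15) went from 0.28, 0.11 and 0.15 to 3.30, 3.35 and 2.91 (8.06-fold, limma adjusted p = 8.16e-10). No difference is given for Z00071202-1, whose PND70 liver spots were mostly saturated. The exposed age difference of the other near matches was 3.63 for Z00072624-1 and 2.96 for Z00071109-1.

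The reference RNA was the same on every array, yet the reference channel of some members was brighter on the PND70 arrays. Each channel had been brought to the same distribution over all probes, with a reference median of 8.67 to 8.68 (log2 signal), but the median reference signal of the members was 8.50 to 8.75 at PND1 and 9.10 to 9.35 at PND70. The PND70 minus PND1 difference in the reference channel was above 0 for 145 of the 200 members and over 1 for 40 (20%), against 0.286% of all probes, and it was below -1 for 0 members, with a range of -0.39 to 6.32. These 40 members had a median liver signal at PND70 of 13.47, and the other members 10.60.

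In the 40 members the liver channel alone rose by a median of 5.2 between the PND1 and PND70 arrays and the ratio by 3.64, whereas in the other members the medians were 2.49 and 2.48. For the former the ratio thus gave a smaller age difference than the liver signal itself. The reference signal of Z00071202-1 moved most, from a mean of 6.28 at PND1 to 12.60 at PND70 (log2 signal), while its liver signal went from 7.0 to 15.93, a lower bound because the liver spot was saturated on 7 of the 9 PND70 arrays. The part of the reference channel in the age differences was not tested.

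**Figure D3:**
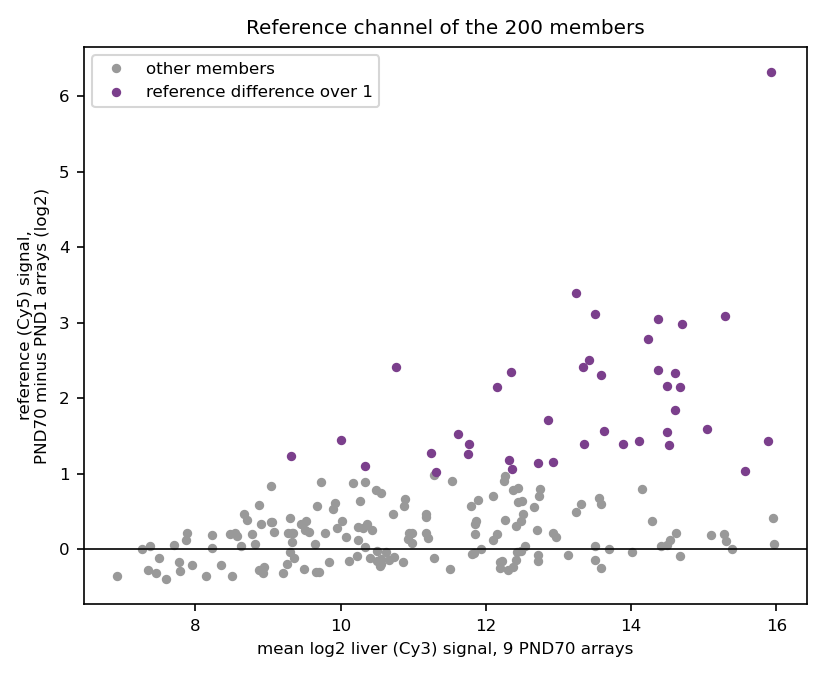
PND70 minus PND1 difference of the reference (Cy5) signal of each of the 200 members (log2, vertical axis) against its mean liver (Cy3) signal on the 9 PND70 arrays (log2, horizontal axis). The 40 members with a difference over 1 are coloured; their median liver signal is 13.47, against 10.60 for the others, and the highest point is Z00071202-1 at 6.32.

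Saturation touched 4 members, Z00036234-1, Z00000354-1, Z00071202-1 and Z00025217-1. The liver spot of Z00036234-1 was saturated on all 9 PND70 arrays, that of Z00000354-1 on 8 and that of Z00071202-1 on 7, so their adult levels are lower bounds. In liver signal after loess and Aquantile normalization, which without a dye swap is open to dye bias, PND70 prenatal arsenic over PND1 arsenic was at least 5.55-fold for Z00036234-1 (limma adjusted p of its ratio 0.000256) and at least 13.3-fold for Z00000354-1 (limma adjusted p 1.66e-08). These bounds hold on that scale only. In the liver channel as used above, Z00000354-1 rose by 3.06 (log2) over all arrays of each age, from 12.91 to 15.97.

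Whether prenatal arsenic shifted the members at birth was the next comparison. At an unadjusted p of 0.01, 19 members (9.5%) were higher in PND1 arsenic than in PND1 control pups and 0 were lower, where 2.01% of all probes were higher and 1.3% lower. No member passed an adjusted p of 0.05 (limma), whereas 0.0452% of all probes did, and 41 members had an unadjusted p under 0.05 (20.5%, against 11.5% of all probes). The median difference of the members was 0.13, against 0.00 for all probes, with a range of -0.62 to 1.53 and 141 of 200 above 0 (70.5%, against 51.1% of all probes). The 95% confidence interval of 166 members lay within 1 of 0, a share not counted over all probes. The groups did not overlap for 18 members that were higher (9%, against 6.69% of all probes) and 2 that were lower (1%, against 5.5%).

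These counts lean on how the members were chosen, because the rule took probes with low values in the same PND1 control arrays. A list of 200 probes chosen by the same gap in the prenatally exposed arrays shared 141 probes (70.5%) with the members and leans the other way. In that list 5 probes were higher and 3 lower at an unadjusted p of 0.01, and the median difference was 0.00. The excess of higher members at birth was therefore not seen when the exposed arrays did the choosing.

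Z00061294-1 had the smallest p at birth. It measured -1.16, -1.16 and -1.53 in control and -0.80, -0.47 and -0.13 in arsenic pups, with all 3 arsenic arrays above all controls. The difference was 0.82 ± 0.14 (SE, n = 3 per group, 95% CI 0.51 to 1.13), with an unadjusted limma p of 7.2e-05 and an adjusted p of 0.0789. By 10 weeks its values were 1.29 to 1.60 in control and prenatal arsenic mice. Z00008952-1 was at 0.50, 0.36 and 0.37 against 0.60, 1.07 and 1.00 (difference 0.48 ± 0.11, limma adjusted p = 0.137), and Z00056060-1 at 1.59, 1.67 and 1.56 against 1.92, 2.70 and 2.13 (0.64 ± 0.15, limma adjusted p = 0.159). The call of Z00008952-1 was lost in the liver channel alone (0.36, limma unadjusted p = 0.0308) and that of Z00056060-1 with only the groups compared (limma unadjusted p = 0.0142).

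The overlapping probes Z00054968-1 and Z00039591-1 were both among the 19. Z00054968-1 differed by 0.57 (2.21, 2.94 and 2.48 in arsenic pups, limma adjusted p = 0.178) and Z00039591-1 by 0.46 (1.72, 2.47 and 2.08, limma adjusted p = 0.252). The Cyp3a11 probe was also among them. It was at 2.35, 3.08 and 2.24 in control and 2.66, 4.65 and 4.32 in arsenic pups, so that the groups overlapped, with a difference of 1.32 ± 0.37 (limma unadjusted p = 0.00372, adjusted p = 0.241).

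The Cyp3a11 values show a split that recurred among the members, with PND1 arsenic replicates 2 and 3 apart from replicate 1. Both lay above all 4 other PND1 arrays for 70 members and below all 4 for 13, against 12.3% and 10.7% of all probes. Of these 4 arrays 3 are the PND1 controls that the rule required to be low, so the counts lean on the choice of members. Members chosen here after their values were seen show both directions. Z00000398-1 was at 2.04, 2.23 and 0.83 in control and 1.02, 3.03 and 4.04 in arsenic pups, and Z00011061-1 at 0.73, 0.93 and 1.16 against 1.37, 3.28 and 2.20. In Z00023068-1 the order was opposite, with 3.52, 4.41 and 4.81 in control and 4.96, 2.81 and 3.10 in arsenic pups.

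The 6 PND1 arrays spanned more than 1 for 56 members (28.0%, against 4.73% of all probes), and of these 56 the highest array was arsenic replicate 2 in 26 and arsenic replicate 3 in 18, while the lowest was control replicate 3 in 23. The median SD of the members was 0.25 in PND1 arsenic and 0.17 in PND1 control pups, against 0.09 and 0.11 over all probes, and the rule, which used the highest PND1 control array, bears on the control spread. Without arsenic replicate 1, 53 members were called (48 higher), without replicate 2 only 11 (8 higher) and without replicate 3 also 11 (10 higher). The share of all probes called in these fits was not counted, so whether the change is a trait of the members was not tested. The animal tags of arsenic replicates 2 and 3 in the labels begin with the same letters (Rm) and that of replicate 1 with others (Mm), and the sources used here do not say what the letters stand for.

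At PND70, after exposure before birth only, 9 members (4.5%) were higher and 3 (1.5%) lower than in control mice at an unadjusted p of 0.01, where 2.83% of all probes were higher and 0.707% lower. No member passed an adjusted p of 0.05 (limma), and 1 of all 42006 probes did (0.00238%), while 27 members had an unadjusted p under 0.05 (13.5%, against 11.0% of all probes). The median difference was 0.08, against 0.01 for all probes, with a range of -1.11 to 0.88. Of the members, 126 lay above 0 (63.0%, against 52.1% of all probes). The 95% confidence interval lay within 1 of 0 for 176 members, a share not counted over all probes. The rule took probes with high values in the PND70 controls, so the members lean towards lower values here, and the list chosen on the exposed arrays gave 14 higher and 3 lower. The groups did not overlap for 37 members that were higher (18.5%, against 13.7% of all probes) and 6 that were lower (3%, against 6.05%).

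Z00022887-1 fell furthest. Its values were 4.08, 4.09 and 4.6 in control, 3.24, 3.07 and 3.14 in prenatal arsenic and 2.96, 3.51 and 3.46 in postweaning arsenic mice, and both exposed groups lay below every control. The prenatal difference was -1.11 ± 0.17 (SE, n = 3 per group, limma unadjusted p = 1.65e-05, adjusted p = 0.127). It was -1.90 in the liver channel alone and -0.70 with processed signals, and the adult level after prenatal exposure was still 8.00-fold that of PND1 arsenic pups. The reference signal of this probe was 1.39 higher on PND70 than on PND1 arrays. The other 2 lower members were Z00024801-1 (3.04, 3.15 and 3.53 against 2.66, 2.67 and 3.01) and Z00045520-1 (4.08, 4.26 and 4.37 against 3.89, 3.92 and 4.04), with differences of -0.46 (limma adjusted p = 0.24) and -0.29 (0.282). Their calls were lost in 8 and 9 of the 15 alternatives, where the difference of Z00045520-1 was as small as -0.13 (processed signals). The sequence relative of Z00045520-1 printed above, Z00024243-1, was at 4.87, 5.25 and 5.30 in control and 5.01, 4.91 and 5.06 in prenatal arsenic mice, with overlapping groups.

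The 3 higher members with the smallest p moved by less. Z00025305-1 was at 2.59, 2.26 and 2.32 in control and 3.13, 2.94 and 2.62 in prenatal arsenic mice (difference 0.51 ± 0.13, limma adjusted p = 0.194). Its call was lost without background subtraction (0.22, limma unadjusted p = 0.0272) and in the liver channel alone (0.08, limma unadjusted p = 0.552). Z00024179-1 was at 0.91, 0.92 and 1.06 against 1.16, 1.45 and 1.30 (0.34 ± 0.09, limma adjusted p = 0.22), and Z00000332-1 at 1.94, 1.89 and 1.82 against 2.05, 2.28 and 2.22 (0.30 ± 0.08, limma adjusted p = 0.223), and their calls were lost in 2 and 4 of the 15 alternatives. The Cyp3a11 probe, at 5.92, 5.83 and 5.94 against 6.20, 6.06 and 6.13, did not pass the threshold. Without control replicate 1 28 members were called, without control replicate 3 6, and without prenatal arsenic replicate 2 only 3. The share of all probes called in these fits was not counted.

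After postweaning exposure, 20 members (10.0%) were higher and 4 (2.0%) lower than in control mice at an unadjusted p of 0.01, where 3.85% of all probes were higher and 0.674% lower. Of the 4 lower members, Z00025217-1 was saturated on the postweaning arrays and is given no direction below, which leaves 3. At an adjusted p of 0.05, 2 members were higher and 2 lower (limma), against 0.85% and 0.0452% of all probes. The median difference was 0.07, against 0.0 for all probes, with a range of -0.96 to 1.14. Of the members, 117 lay above 0 (58.5%, against 51.6% of all probes). The groups did not overlap for 41 members that were higher (20.5%, against 12.8% of all probes) and 14 that were lower (7%, against 4.95%). Without control replicate 2 the 24 calls became 12, and without postweaning replicate 3 they became 15, the share of all probes not being counted. The control arrays were those that entered the prenatal comparison and the rule. Because the rule took high PND70 controls, the members lean towards lower values here too, and the 2 lower adjusted calls lie in that direction. The list chosen on the prenatally exposed arrays gave 22 higher and 4 lower at an unadjusted p of 0.01, with a median difference of 0.05. At an adjusted p of 0.05 (limma) that list gave 5 higher and 2 lower.

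The 4 members past the adjusted threshold moved by up to 2.20-fold. Z00025305-1 was higher, at 3.28, 3.21 and 3.58 against 2.59, 2.26 and 2.32 in controls (1.96-fold, difference 0.97 ± 0.13, SE, n = 3 per group, limma adjusted p = 0.0144). Z00036113-1 was higher as well, at 1.70, 1.18 and 1.63 against 0.44, 0.33 and 0.33 (2.20-fold, limma adjusted p = 0.04), while in prenatal arsenic mice it was at 0.34, 1.11 and 1.07. Z00041696-1 was lower, at -0.69, -0.46 and -0.83 against 0.39, 0.10 and 0.40 (difference -0.96 ± 0.12, limma adjusted p = 0.0144), and Z00022887-1 was lower with a difference of -0.95 ± 0.17 (limma adjusted p = 0.026). In other settings the difference was as small as 0.56 for Z00025305-1 (liver channel alone) and -0.35 for Z00041696-1 (no background subtraction), and that of Z00022887-1 ran from -1.84 (liver channel alone) to -0.55 (processed signals). The probe sequences of these 4 are printed because they carry the clearest adult differences.

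Z00041696-1: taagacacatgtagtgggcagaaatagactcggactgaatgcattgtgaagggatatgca

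Z00025305-1: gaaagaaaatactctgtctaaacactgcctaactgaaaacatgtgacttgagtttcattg

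Z00036113-1: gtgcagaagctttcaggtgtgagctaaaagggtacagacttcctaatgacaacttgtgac

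Z00022887-1: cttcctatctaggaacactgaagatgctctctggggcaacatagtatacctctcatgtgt

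Each adjusted call failed in some alternative, with adjusted p up to 0.0853 for Z00025305-1 and Z00041696-1 (both without postweaning replicate 3), 0.204 for Z00036113-1 (without the same array) and 0.286 for Z00022887-1 (with the scanner software's processed signals). In every alternative run the 4 kept their direction and an unadjusted p under 0.01. Over their alternatives the lowest adjusted p, in the same order, were 0.00107, 0.00151, 0.00352 and 0.00228.

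Of the remaining members, Z00058999-1 was at 1.61, 1.82 and 1.80 against 1.48, 1.19 and 1.43 (difference 0.38 ± 0.08, limma adjusted p = 0.0581). Z00060225-1 and Z00059883-1, both among the 10 with the largest gap, were higher by 1.00 (4.29, 4.18 and 4.41 against 3.92, 3.11 and 2.87, limma adjusted p = 0.0601) and by 0.90 (4.28, 4.22 and 4.41 against 4.04, 3.20 and 2.97, limma adjusted p = 0.104), and in both the control replicate 1 stood above replicates 2 and 3. A probe that is no member, Z00045240-1, shares its last 22 bases with the start of Z00060225-1, and it was at 4.45, 4.59 and 4.61 against 4.27, 4.15 and 4.04.

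Z00025217-1 was lower in the ratio, at 3.59, 3.75 and 3.59 against 4.19, 4.07 and 4.13 (difference -0.49 ± 0.16, limma adjusted p = 0.221), but its liver spot was saturated on all 3 postweaning arrays and on 0 control arrays. In the liver channel alone the difference was 0.23 in the other direction, so no direction is given for this member.

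The postweaning and prenatal groups were compared directly at PND70, a contrast in which the controls cancel and which the rule did not use. At an unadjusted p of 0.01, 7 members (3.5%) were higher and 5 (2.5%) lower after postweaning than after prenatal exposure, where 1.08% of all probes were higher and 0.636% lower. The median difference was 0.01, against 0.0 for all probes. Above 0 lay 104 members (52.0%, against 48.6% of all probes) and below it 96. The 95% confidence interval lay within 1 of 0 for 176 members, a share not counted over all probes. The groups did not overlap for 30 members that were higher (15%, against 8.45%) and 27 that were lower (13.5%, against 7.51%). Of the 200, 1 passed an adjusted p of 0.05 (limma), against 0.00476% of all probes. Without prenatal arsenic replicate 3 the 12 calls became 6, and without postweaning replicate 2 or 3 they became 5, the share of all probes not being counted.

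That member was Z00041696-1. Prenatal arsenic mice were at 0.50, 0.23 and 0.67 and postweaning arsenic mice at -0.69, -0.46 and -0.83, so the groups were separate, while the controls (0.39, 0.10 and 0.40) overlapped the prenatal group. The difference was -1.12 ± 0.12 (SE, n = 3 per group, 95% CI -1.38 to -0.86, 0.459-fold, limma adjusted p = 0.00744), and in the liver channel alone it was -1.11. Without background subtraction it was -0.43 (limma adjusted p = 0.0563). The adjusted call was also lost with only the groups compared (limma adjusted p = 0.148), with unmoderated variances (0.0786) and without prenatal arsenic replicate 1 (0.0624) or 3 (0.0552) or postweaning replicate 3 (0.0662). In every alternative run it kept its direction and an unadjusted p under 0.01. The probe was dim, with a mean liver signal of 6.12 at PND1 and 7.46 at PND70 (log2), and it passed the negative controls on 4 of 6 PND1 arrays. At birth it was at -1.64, -1.77 and -1.86 in control and -1.55, -1.54 and -1.56 in arsenic pups, below every adult array.

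Z00024801-1, Z00017521-1 and Z00025305-1 were the higher members with the smallest p. Z00024801-1 was at 3.10, 3.56 and 3.22 after postweaning and 2.66, 2.67 and 3.01 after prenatal exposure (difference 0.51 ± 0.14, limma adjusted p = 0.401). For Z00017521-1 the values were 3.44, 3.91 and 4.19 against 2.95, 3.29 and 3.17 (0.71 ± 0.19, limma adjusted p = 0.43), and for Z00025305-1 the difference was 0.46 ± 0.13 (limma adjusted p = 0.463). Of the lower members whose groups did not overlap, the other 2 were Z00039517-1, at 3.09, 2.70 and 2.83 against 3.35, 3.46 and 3.61 (limma adjusted p = 0.407), and Z00022163-1, at 2.48, 2.40 and 2.03 against 2.64, 2.94 and 2.73 (limma adjusted p = 0.549), and their calls were lost in 5 and 7 of the 15 alternatives. The calls of the 3 higher members were each lost in 3. Called with overlapping groups, and named here after their values were seen, were Z00055556-1, at 3.91, 3.22 and 2.70 against 4.20, 3.85 and 4.63 (difference -0.95), and Z00037593-1, at 2.39, 1.60 and 1.74 against 2.54, 2.59 and 2.34 (-0.58). Z00072624-1, near in sequence to Mup-ps15, was at 4.08, 4.12 and 4.01 against 3.55, 3.71 and 3.41 (difference 0.51, limma adjusted p = 0.544).

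**Figure D4:**
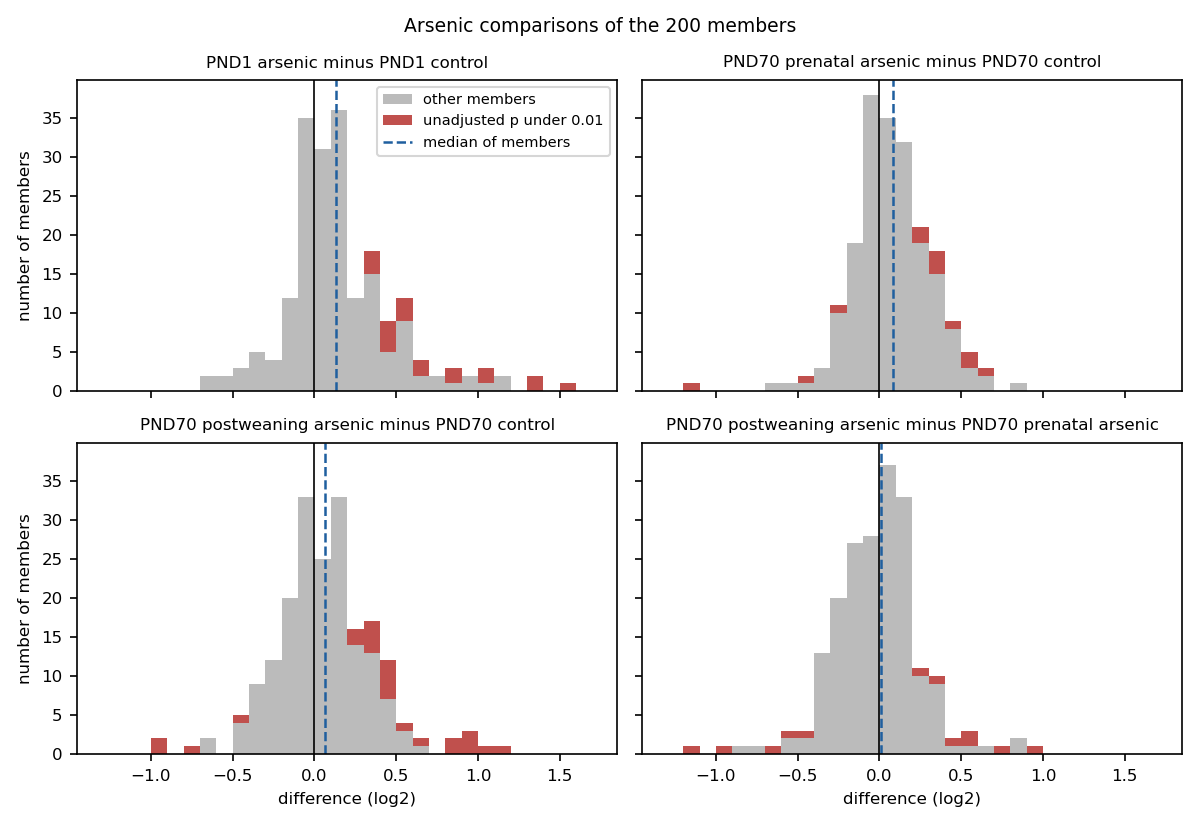
Number of the 200 members by their difference (log2) in each of the 4 arsenic comparisons, with members at an unadjusted p under 0.01 in red, a line at 0 and a dashed line at the median. The medians lie at 0.13, 0.08, 0.07 and 0.01, and 19, 12, 24 and 12 members are red.

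**Figure D5:**
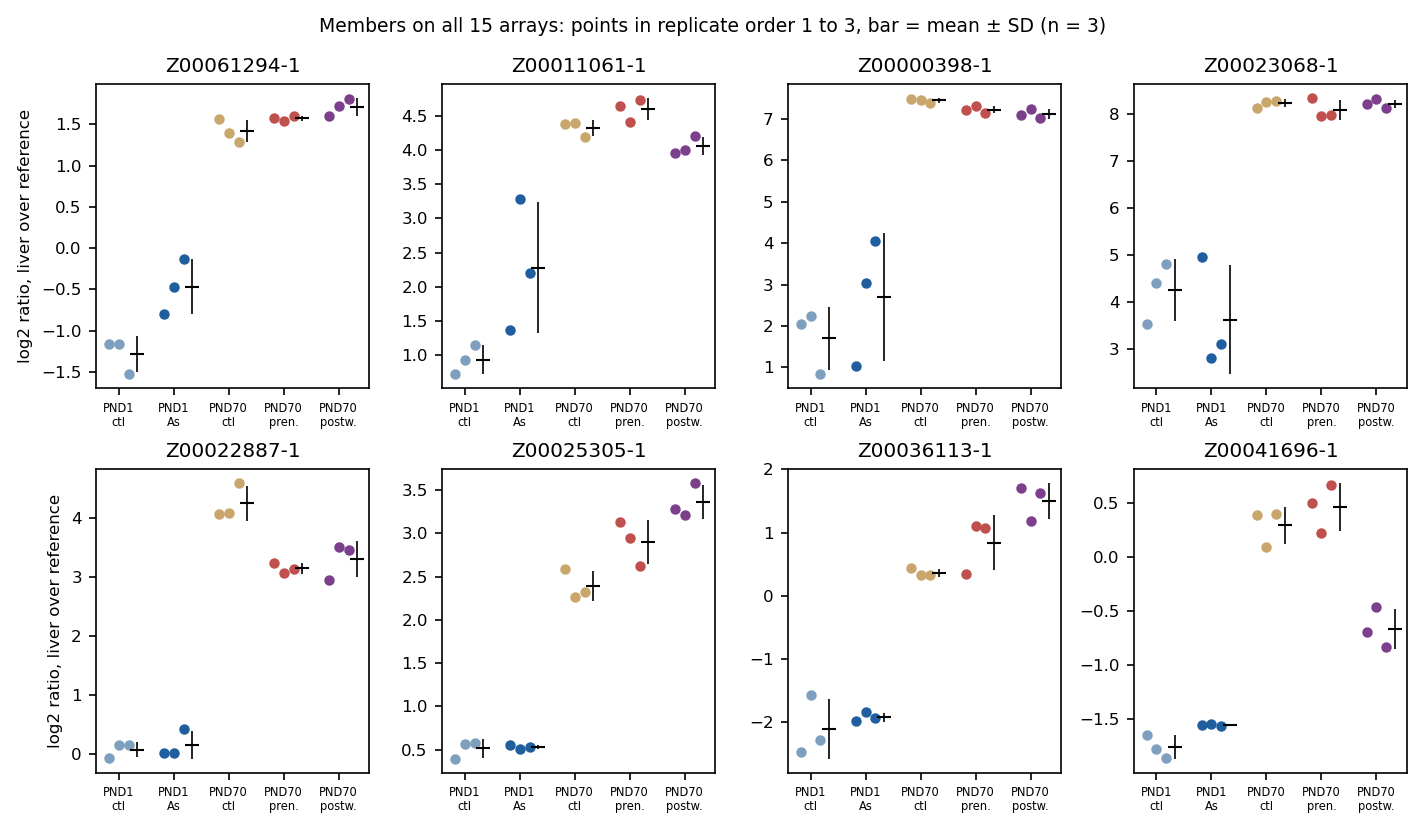
Log2 ratio of liver over reference of 8 members on all 15 arrays, with points in replicate order and the mean ± SD (n = 3) beside each group (ctl, control; As, arsenic; pren., prenatal arsenic; postw., postweaning arsenic). The upper row shows members that spread at birth, such as Z00000398-1 from 0.83 to 4.04, and the lower row members with adult differences, such as Z00041696-1 from -0.83 to 0.67 at PND70.

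Adult livers also spread within a group in some members. The 9 PND70 arrays spanned more than 1 for 37 members (18.5%, against 2.85% of all probes). Within the 3 control arrays alone, which the rule used, 17 members spanned more than 1. In all 17 control replicate 1 was at one end, the lowest array in 11 and the highest in 6. The share of all probes with such a span was not counted, so whether it is a trait of the members was not tested. Z00053142-1, chosen here for its wide span, was at 2.41, 4.37 and 4.95 in control, 3.12, 3.38 and 3.70 in prenatal arsenic and 3.49, 3.74 and 3.20 in postweaning arsenic mice, and at -0.21 to 0.17 on all PND1 arrays. The same control spread was seen in Z00024713-1 (2.71, 4.35 and 5.03) and Z00028829-1 (1.78, 3.35 and 4.13), so that in these members the exposed mice lay between the controls.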

How the data were processed

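The authors labelled liver RNA (Cy3) and reference RNA (Cy5), hybridized 15 arrays of 44290 spots, read them with Feature Extraction A.7.5.1 and deposited its spot tables, whose intensity values are linear spot and background signals, processed signals and spot flags, not normalized between arrays. The members were chosen from the processed signals. For all tests, mean signals were background corrected (normexp, offset 50), quantile normalized across arrays, a step that the authors' methods name, here per channel and without their mean-centring, and converted to log2 ratios with loess (span 0.3). Outlier spots (8 to 172 per array) were left missing, which affected 4 member values, and saturated spots were kept. The number of arrays limits the precision. One mean per group was fitted to 42006 probes on all 15 arrays with limma 3.58.1 in R 4.3.3, with p-values adjusted by Benjamini-Hochberg over all probes. The unadjusted p of 0.01 follows the methods. The fits were tested on simulated data.

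The members and lists were chosen with earlier results of these data known. The probes named were the 10 with the largest gap, in each arsenic comparison the 3 with the smallest p in each direction among called members whose groups do not overlap, the 3 on each side of the gap threshold, the 2 with the smallest exposed age difference, and members matched to genes. Gene and cell type lists could not be applied, since the files do not pair probes with genes and the GEO gene list of the array that the methods name was not used here.

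Replicate numbers are shared between groups. At PND70, control and prenatal arsenic arrays with the same number deviated together (correlations across probes of 0.374, 0.158 and 0.158), which only the data show, since the labels give the numbers no meaning. In the other comparisons at least 1 correlation was below 0.1. They were 0.0874, 0.505 and -0.265 in the postweaning comparison and -0.339, -0.086 and -0.293 in the prenatal comparison at birth. Alternatives were other normalizations, the liver channel alone, other variance settings, array weights, a replicate block, other member lists and leaving out each array.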

Additional observations from a re-analysis of the deposited data

Results flagged for a closer look

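Z00041696-1 differed between the 2 exposures at PND70, postweaning minus prenatal arsenic being -1.12 (limma adjusted p = 0.00744), in a direct test of that difference. The adjusted p ran up to 0.148 over the alternatives, and the difference was -0.43 without background subtraction (limma adjusted p = 0.0563). All 3 postweaning arrays lay below all 3 prenatal arrays. No separate search for single outlying arrays was made in the groups of 3, and counts without each array are given below.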

How the results depend on the processing

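The age difference in exposed mice was called for 199 members with only the groups compared, for 200 in the other normalizations, in the other variance settings and without 1 array (200 to 200), for all 100 of the 100 probes with the largest gap and for 397 of the 400. A count at its limit says little about size, which did move. The difference of Z00024717-1 ran from 2.65 to 5.76 over the settings and that of Z00024300-1 from 0.29 to 1.84. The gap on the liver channel alone chose 127 of the same probes and the gap on the normalized ratio 169. The arsenic counts depended on the setting. Shares of all probes were counted in the main setting only. Whether the changes in count listed next are particular to the members was therefore not tested. At birth the 19 calls became 11 without background subtraction, 4 with only the groups compared, 9 with unmoderated variances, 35 with array weights, 11 and 29 for the 100 and 400 probes with the largest gap, 8 for the list chosen on exposed arrays, 0 at an adjusted p of 0.05, and 11 to 53 without 1 array. Prenatal exposure at PND70 gave 5 in the liver channel alone, 5 unmoderated, 39 with weights, 0 adjusted, and 3 to 28 without 1 array. Postweaning exposure gave 14 unmoderated, 48 with weights, 13 and 44 for the shorter and longer list, 4 adjusted, and 12 to 31 without 1 array. The direct contrast of both exposures gave 24 without background subtraction, 26 with only the groups compared, 7 unmoderated, 20 with weights, 5 and 33 for the shorter and longer list, 1 adjusted, and 5 to 16 without 1 array.

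With a replicate block the counts were 200, 22, 11, 20 and 13, within 1.5 times those without it, and the pairing changed the call of no named probe in the prenatal comparison at PND70. In the postweaning comparison the block took the adjusted call from Z00036113-1 (limma adjusted p = 0.0544) and the unadjusted call from Z00025217-1 (limma unadjusted p = 0.0159, adjusted p = 0.287).

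The member median at birth became 0.05 without background subtraction, 0.08 in the liver channel, 0.17 with processed signals, 0.00 with the list chosen on exposed arrays and 0.10 to 0.16 without 1 array. At PND70 the prenatal median was 0.19 with processed signals, 0.14 without the quantile step and 0.07 to 0.11 without 1 array, and the postweaning median 0.17 with processed signals, 0.17 without the quantile step, 0.14 in the liver channel and 0.06 to 0.10 without 1 array. The median of the direct contrast was 0.05 without the quantile step, 0.06 in the liver channel, -0.04 with the exposed list and -0.01 to 0.02 without 1 array. Of 33 results for named probes, 32 kept their direction in every setting, but 13 of the 21 arsenic results lost the threshold in at least 1 setting. Z00025217-1 reversed to 0.23 in the liver channel alone, where it is saturated. The causes were not tested. The filter on dim probes removed 0 probes, because the scanner's flag marked 96.5% to 100% of negative control spots too.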
